A study of Homo sapiens with 171 samples.

Results

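A2780 is an established human ovarian cancer cell line that is widely used as a cisplatin-sensitive model. Its response to the drug was taken from 6 cultures of batch 1 out of the 171 arrays of the series, chosen by the cell line and batch named in the labels. Of these, 3 cultures were left untreated, and 3 received cisplatin for 48 h at the GI50 of the line, a dose set by its effect on growth; the sources used here give no concentration. Cells of both arms were grown in 96-well plates. No transgene or other agent is named for either arm. The labels number the cultures 1 to 3 in each arm but do not say that they came from separate passages, so the spread between them may be technical. Unless another fit is named, p-values rest on the spread between cultures of an arm, pooled for each gene over 107 cultures of 18 lines.

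The series measured 46 ovarian cancer cell lines with and without cisplatin on Affymetrix arrays. The comparisons below use the 17 other lines of batches 1 to 3, which had replicate cultures, and place beside A2780 the lines CH1 and PA-1 and the cisplatin-resistant relative A2780cisR, which had 1 culture an arm. Each line was given its own GI50, so doses differed between lines. Values are log2 expression levels of 18417 genes, and a change is the difference of the 2 arm means on that scale, cisplatin minus untreated. The 6 A2780 arrays correlated at 0.9906 to 0.9954 with one another and at 0.9348 at most with an array of any other line. The median standard deviation of a gene was 0.128 over the untreated cultures and 0.102 over the cisplatin cultures.

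Cisplatin binds purine bases in DNA and links them within and between strands. The lesions stall replication forks and transcription, and the kinases that sense them stabilise p53, a transcription factor that induces genes of cell cycle arrest, repair and cell death. One of these, the inhibitor CDKN1A, keeps the pocket proteins active, which repress genes of mitosis through the DREAM complex. Nucleotide excision repair, the Fanconi anaemia pathway and homologous recombination remove the lesions.

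In A2780, 651 of 18417 genes (3.53%) passed the threshold of an adjusted p of 0.05 in limma's moderated test with Benjamini-Hochberg adjustment over all genes. Of these, 316 were higher (1.72%) and 335 lower (1.82%) after cisplatin. Genes of the p53 response rose (26 of 52), and genes of mitosis (23 of 29), replication-dependent histone genes (15 of 41) and part of the stress response (6 of 20) fell. The median size of the called changes was 0.495 on the log2 scale, and 11 called genes rose by 2-fold or more while 13 fell by that factor or more. The untreated and cisplatin cultures did not overlap in 641 of the 651 called genes, against 24.7% of all genes without overlap. The calls were made on the same values, so this adds no separate support for them. Leaving out 1 culture at a time lowered the count to 426 without untreated culture 3, 413 without cisplatin culture 2 and 392 without cisplatin culture 3. Simulated data had 200 genes changed in A2780 and no response in the other lines. There the same contrast recovered 49% of changes of 0.5 and 97% of changes of 1. Changes of 0.5 were thus often missed in that setting. They can be missed in the real data too, where the share is not known.

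**Figure D1:**
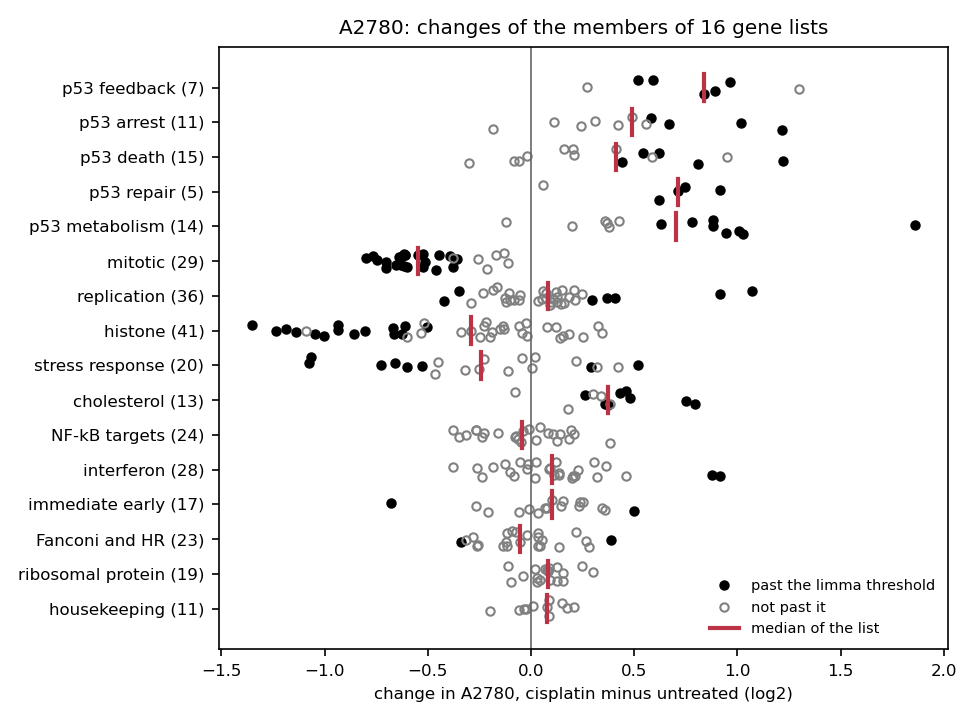
Each point is the change of 1 gene in A2780 (cisplatin minus untreated, log2, horizontal axis), in rows by gene list with the number of measured members in brackets. Filled points passed the limma threshold, open points did not, and the red bar is the median of the list: 23 of 29 mitotic genes fell, and filled points of the 5 p53 rows all lie above 0.

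Of 52 measured p53 target genes, 26 rose and 0 fell, with a median change of 0.57 over all 52 beside -0.02 over all genes. The share of all genes called higher was 1.72%. At an unadjusted p under 0.05, 38 rose and 0 fell. CDKN1A, which encodes the cyclin-dependent kinase inhibitor p21, measured 7.04, 7.03 and 6.94 in the untreated cultures and 8.04, 8.29 and 8.32 in the cisplatin cultures. The arms did not overlap, and the change of 1.22 (SE 0.15) was a 2.32-fold rise (limma adjusted p = 3.25e-09). SESN1, a stress-induced brake on mTORC1, went from 8.14, 8.31 and 8.14 to 9.22, 9.22 and 9.20, again without overlap. SFN (14-3-3 sigma) rose by 0.67 and the repressor E2F7 by 0.58, which made 4 of 11 arrest genes; the SFN call was lost when the A2780 arrays were fitted alone (adjusted p = 0.104). GDF15, a secreted stress cytokine, changed by 0.42 with an adjusted p of 0.441, and GADD45A by 0.11.

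The feedback regulators of p53 rose in 5 of 7 cases. MDM2, the ubiquitin ligase that degrades p53, measured 10.25, 10.34 and 10.41 untreated and 10.99, 10.87 and 10.92 after cisplatin, a rise of 0.59 (SE 0.12, adjusted p = 0.000784). ZMAT3, an RNA-binding protein, rose by 0.96, PHLDA3, an inhibitor of AKT, by 0.84, and the phosphatase gene PPM1D by 0.52. TP53INP1 rose by 0.89, but this call was lost in each fit that left out 1 culture other than untreated culture 3, with adjusted p-values up to 0.097. TRIM22 had a change of 1.30 and did not pass the threshold. At an unadjusted p under 0.05 in limma all 7 feedback genes rose, beside 1178 of 18417 genes. With the A2780 arrays alone, 6 of the 7 passed the threshold, beside 372 of 18417 genes.

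Death genes rose in 5 of 15 cases. SPATA18, which takes part in clearing damaged mitochondria, rose 2.33-fold, from 7.66, 7.87 and 7.93 to 8.93, 9.14 and 9.05. The oxidoreductase gene TP53I3 rose by 0.81 (SE 0.08, adjusted p = 4.33e-12), PIDD1, a platform for caspase-2, by 0.62, and BAX, which permeabilises mitochondria, by 0.54. Levels of BAX were 8.83, 8.83 and 8.68 untreated and 9.32, 9.28 and 9.38 treated. The BH3-only genes BBC3 (PUMA) and PMAIP1 (NOXA) had changes of -0.06 and -0.02, and neither passed. Changes of the death receptor genes FAS (0.41, adjusted p = 0.105), TNFRSF10B (0.20) and TNFRSF10A (-0.30) did not pass either. Of 9 proapoptotic and 7 antiapoptotic genes of the BCL2 family and its partners on separate lists, 0 passed in limma, also with the A2780 arrays alone, and 0 and 1 had an unadjusted p under 0.05. The largest change among them was -0.37, for BCL2A1.

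AEN, a nuclease induced by p53, was the fifth death gene to rise, by 0.44, although each fit that left out 1 culture other than untreated culture 1 lost the call (adjusted p up to 0.167). Its promoter is printed because it was the only one of 21 promoters of risen p53 targets with a match to the p53 response element. The search covered 250 bases upstream of the start on both strands, with up to 2 mismatches and a gap of up to 13 bases, and found the element in 1.12% of 14239 promoters. The capitals mark the match in the sequence from RefSeq, build GRCh38.p14.
AEN, chr15:88621280-88621339, plus strand: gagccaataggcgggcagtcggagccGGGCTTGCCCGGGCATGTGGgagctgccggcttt
No match in the other 20 windows says only that this pattern is not in those bases.

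Repair and nucleotide supply genes rose in 4 of 5 cases. POLH, the translesion polymerase eta that can copy past platinum crosslinks, measured 7.86, 7.94 and 7.82 untreated and 8.70, 8.78 and 8.88 treated. Its change of 0.91 (SE 0.09) had an adjusted p of 9.92e-13. The damage-recognition genes of nucleotide excision repair DDB2 and XPC rose by 0.75 and 0.71. RRM2B, a ribonucleotide reductase subunit, rose by 0.62, and POLK changed by 0.06 without passing.

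Metabolic and other p53 targets rose in 8 of 14 cases and held the largest rise of the line. CYFIP2, a subunit of the WAVE complex that controls actin branching, measured 6.46, 6.67 and 6.46 untreated and 8.40, 8.38 and 8.38 treated. The arms were 1.86 apart (SE 0.26), a 3.63-fold rise (adjusted p = 1.79e-07). ACER2, an alkaline ceramidase, rose by 1.03, the lysosomal autophagy gene DRAM1 by 1.01, RPS27L by 0.94, CMBL, a hydrolase, by 0.88, the cytokine LIF by 0.88 and the semaphorin receptor PLXNB2 by 0.78. TIGAR, a regulator of glycolysis, had a change of 0.37 and did not pass.

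Beyond these targets, the largest rises were DNAI3, a dynein intermediate chain gene, by 1.56 and SULF2, an extracellular heparan sulfate sulfatase, by 1.53. SULF2 measured 6.79, 6.62 and 6.68 untreated and 8.17, 8.25 and 8.24 treated, with no overlap. INPP5D, the inositol phosphatase SHIP1, rose by 1.19, PARD6G, a polarity protein, by 0.99, and MR1, which presents vitamin metabolites to T cells, by 0.96. SCN7A rose by 0.95 and ZNF737 by 1.22 from low levels, since their means over the 6 arrays (4.84 and 3.84) lay in the lowest 30% of genes. The ZNF737 call was lost without cisplatin culture 2 (adjusted p = 0.0558), cisplatin culture 3 (0.149) or untreated culture 3 (0.247).

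**Figure D2:**
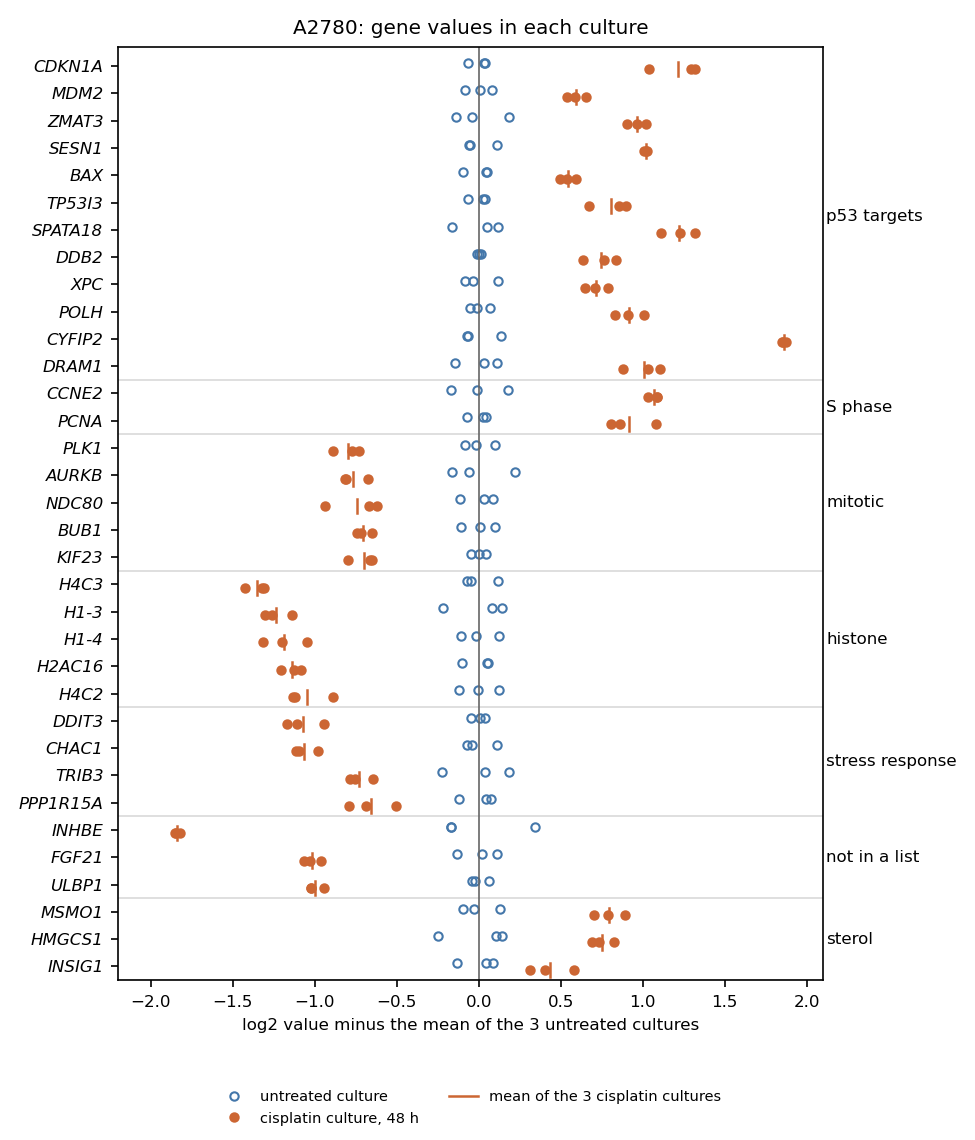
Values of selected genes in each of the 6 A2780 cultures, as log2 value minus the mean of the 3 untreated cultures (horizontal axis); open circles are untreated cultures, filled circles cisplatin cultures and vertical bars the mean of the cisplatin cultures. In every gene shown the filled circles lie on 1 side of all open circles, from the rise of 1.86 in CYFIP2 to the fall of INHBE by 1.84.

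Of 36 replication genes, 5 rose, 2 fell and 29 did not pass, with a median of 0.08. The shares of all genes called higher and lower were 1.72% and 1.82%. CCNE2, the cyclin E2 that starts S phase, measured 5.36, 5.71 and 5.52 untreated and 6.56, 6.62 and 6.62 treated, a rise of 1.07 (SE 0.13, adjusted p = 1.78e-09). PCNA, the sliding clamp of DNA polymerases and also a p53 target, measured 9.20, 9.32 and 9.30 untreated and 10.13, 10.36 and 10.08 treated. Both genes were higher in every treated culture than in any untreated one. The flap nuclease FEN1 rose by 0.41, thymidylate synthase (TYMS) by 0.37 and MCM10 by 0.30, while the helicase cofactor CDC45 fell by 0.42 and the polymerase subunit POLA1 fell by 0.35. The TYMS call was lost without untreated culture 3 or cisplatin culture 2 (adjusted p up to 0.157), the CDC45 call without untreated culture 1, cisplatin culture 2 or cisplatin culture 3 (up to 0.194), and the FEN1 call with the A2780 arrays alone (0.0658). MCM6, a subunit of the replicative helicase, had a change of 0.12 and did not pass.

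Of 29 mitotic genes, 23 fell and 0 rose, beside 1.82% of all genes called lower. All 29 changes were below 0, with a median of -0.55, and 27 had an unadjusted p under 0.05. PLK1, the kinase that drives entry into and exit from mitosis, measured 10.58, 10.70 and 10.52 untreated and 9.82, 9.86 and 9.71 treated. It fell by 0.80 (SE 0.10, adjusted p = 4.3e-09). The spindle checkpoint kinase BUB1 measured 9.49, 9.40 and 9.28 untreated and 8.67, 8.74 and 8.65 treated, and fell by 0.70 (SE 0.07, adjusted p = 9.92e-13). In neither gene did the arms overlap. AURKB, the kinase of the chromosomal passenger complex, fell by 0.77, the kinetochore gene NDC80 fell by 0.74, and KIF23, a kinesin of the cytokinetic midzone, fell by 0.70. CCNB1, the main mitotic cyclin, had a change of -0.17 and CDK1 of -0.26; neither passed, whereas CCNB2 fell by 0.51 and CCNA2 by 0.61. In bulk cultures, fewer cells in mitosis and less of a transcript per cell cannot be told apart.

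The CHR element binds the DREAM and MMB complexes in promoters of mitotic genes. Its core TTTGAA, on either strand, lay within 250 bases upstream of the start in 12 of 20 promoters of mitotic genes that fell (60%), in 10.9% of all 14239 promoters, in 21.5% of the 284 promoters of all genes called lower and in 7.81% of the 269 of genes called higher. The sequences of 5 of the fallen genes are given to show where the core sits; capitals mark it, and the windows come from RefSeq, build GRCh38.p14.
PLK1, chr16:23678829-23678888, plus strand: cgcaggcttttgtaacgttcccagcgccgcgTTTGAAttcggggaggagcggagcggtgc
KIF23, chr15:69414267-69414326, plus strand: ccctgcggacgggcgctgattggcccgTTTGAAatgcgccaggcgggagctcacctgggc
CDC20, chr1:43358889-43358948, plus strand: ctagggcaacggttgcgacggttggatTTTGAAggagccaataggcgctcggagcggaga
BUB1B, chr15:40161009-40161068, plus strand: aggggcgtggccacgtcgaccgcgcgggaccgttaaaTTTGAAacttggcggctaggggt
CCNB2, chr15:59105086-59105145, plus strand: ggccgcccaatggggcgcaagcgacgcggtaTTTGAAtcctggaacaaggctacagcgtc
A CCAAT box, which often stands upstream of a CHR, was present on either strand in 16 of the 20 promoters (80%) and in 34.1% of all promoters. Over the 25 promoters of the whole mitotic list, which include these 20, the shares were 52% for the CHR core and 84% for CCAAT. The CHR core lay in 13 of these 25 promoters and in 12 of the 20. Because the list contains the 20 and adds few others, it cannot show whether either motif is particular to the members that fell. A match is a description of the sequence and not of binding.

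Replication-dependent histone genes fell in 15 of 41 cases and rose in 0, with a median of -0.29. The share of all genes called lower was 1.82%. These genes supply histones in S phase. H4C3, a histone H4 gene, measured 10.61, 10.81 and 10.64 untreated and 9.37, 9.38 and 9.27 treated, a fall to 0.392 of the untreated level (change -1.35, SE 0.14, adjusted p = 4.85e-11). The linker histone gene H1-4 measured 12.20, 12.05 and 11.96 untreated and 10.76, 11.02 and 10.87 treated, and the arms did not overlap. H1-3 fell by 1.24, H2AC16 by 1.14 and H4C2 by 1.05. At an unadjusted p under 0.05, 20 fell and 1 rose. The other 26 genes did not pass, and their changes included values above 0, up to 0.34 for H4C9. Histone genes have near-identical copies, so values of single copies are uncertain. Outside that list the testis linker histone gene H1-6 fell by 1.49 at a mean level of 4.74, in the lowest 30% of genes, and H2BC12, measured at 9.06, 8.84 and 9.11 untreated, rose by 0.89. The H2BC12 call was lost without untreated culture 2 (adjusted p = 0.0851) or cisplatin culture 2 (0.0999).

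Among 14 promoters of the fallen histone genes, CCAAT, on either strand, was present in 12 (85.7%), beside 34.1% of all promoters, with a match between positions -80 and -49 from the start in each of the 12. The TATA box sequence TATAAA was present in 9 (64.3%), beside 8.86%. In 7 of these it lay between -32 and -24, and in H2AC8 and H2BC14 it lay on the opposite strand, between -219 and -201. Over the whole histone list the shares were 89.2% and 73%, close to those of the genes that fell. The windows below, from RefSeq, build GRCh38.p14, show CCAAT in capitals for 3 linker histone genes and TATAAA in capitals for 2 core histone genes.
H1-3, chr6:26235011-26235070, minus strand: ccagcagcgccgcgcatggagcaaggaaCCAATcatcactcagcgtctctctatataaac
H1-4, chr6:26156247-26156306, plus strand: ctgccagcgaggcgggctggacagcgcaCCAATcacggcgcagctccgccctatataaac
H1-2, chr6:26056496-26056555, minus strand: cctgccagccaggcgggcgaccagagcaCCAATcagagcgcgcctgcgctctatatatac
H4C2, chr6:26027284-26027343, minus strand: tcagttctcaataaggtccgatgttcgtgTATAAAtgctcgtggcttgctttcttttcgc
H2AC6, chr6:26124112-26124171, plus strand: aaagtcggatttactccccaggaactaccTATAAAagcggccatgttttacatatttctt

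Part of the integrated stress response, through which ATF4 and its target DDIT3 (CHOP) act, was lower after cisplatin. Of 20 stress response genes, 6 fell and 2 rose, beside 1.82% of all genes called lower and 1.72% called higher. The list median was -0.24. DDIT3 measured 10.10, 10.15 and 10.19 untreated and 9.04, 9.20 and 8.98 treated. Its change was -1.07 (SE 0.17, adjusted p = 8.7e-06). CHAC1, which degrades glutathione, measured 9.74, 9.71 and 9.89 untreated and 8.80, 8.68 and 8.67 treated, a change of -1.06. Both genes were about 2-fold lower in every treated culture. The pseudokinase gene TRIB3 fell by 0.73, the phosphatase subunit PPP1R15A (GADD34) by 0.66, HERPUD1, of protein degradation at the endoplasmic reticulum, by 0.60 and the transcription factor XBP1 by 0.53. ATF4 itself had a change of -0.23, asparagine synthetase (ASNS) of -0.32 and the chaperone HSPA5 of -0.11, none of which passed. The chaperone genes CALR and DNAJB1 rose by 0.29 and 0.52.

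Genes outside the list included the largest fall of the line. INHBE, the activin beta E subunit, measured 8.60, 9.11 and 8.60 untreated and 6.93, 6.95 and 6.92 treated. The fall of 1.84 on the log2 scale (SE 0.16) left 0.28 of the untreated level, with an adjusted p of 8.06e-14. FGF21, a metabolic hormone, fell by 1.02 at a mean level of 5.14, in the lowest 30% of genes, and ULBP1, a ligand of the natural killer receptor NKG2D, fell by 1.00. ATF3, an immediate early gene, fell by 0.68, and the cystine transporter gene SLC7A11 fell by 0.89. KIF5A, a kinesin heavy chain, fell by 1.06 on 1 of its probe sets and had a change of -0.89 on the other.

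The amino acid response element bound by ATF4 and C/EBP partners, searched as TGATGNAA on both strands and chosen after the values were seen, lay upstream of 2 of the 6 fallen stress response genes (33.3%), of 2 of 20 over the whole list (10%) and of 2.3% of all promoters. Among all genes called lower its share was 4.23%, and among those called higher 0.743%. Both windows are from RefSeq, build GRCh38.p14, with the reverse complement of the element in capitals.
CHAC1, chr15:40953236-40953295, plus strand: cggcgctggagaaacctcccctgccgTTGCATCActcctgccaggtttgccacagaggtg
HERPUD1, chr16:56931940-56931999, plus strand: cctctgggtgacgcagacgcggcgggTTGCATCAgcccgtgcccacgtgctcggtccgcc

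Cholesterol synthesis genes, which are targets of SREBP2, rose in 8 of 13 cases, and 0 fell, with a median of 0.37. Of all genes, 1.72% were called higher. HMGCS1, which makes HMG-CoA, measured 9.11, 9.46 and 9.50 untreated and 10.09, 10.05 and 10.18 treated, a rise of 0.75 (SE 0.09, adjusted p = 1.44e-08). MSMO1, a sterol oxidase, rose by 0.79, and INSIG1, the sterol-sensing brake of the pathway, rose by 0.43. The arms did not overlap in any of these 3 genes, and the INSIG1 call was lost with the A2780 arrays alone (adjusted p = 0.0884). The number that rose was 5 without untreated culture 1 or untreated culture 2, 4 without cisplatin culture 2 and 4 with the A2780 arrays alone. SQLE, DHCR7, IDI1, MVD and SC5D had rises of 0.26 to 0.48, MVD was lost in each of the 6 fits without 1 culture, and SC5D without untreated culture 3 or cisplatin culture 2.

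Calls among repair genes for platinum lesions were 1 of 12 (8.33%) for nucleotide excision repair and 2 of 23 (8.7%) for the Fanconi and recombination genes, beside 3.53% of all genes. With so few genes, nothing particular to repair is read from these counts. Of the 12 nucleotide excision repair genes outside the p53 list, CETN2 alone passed, with a rise of 0.36, and the call was lost in each of the 6 fits without 1 culture. ERCC1, the nuclease subunit that cuts beside the lesion, had a change of 0.18. Among the Fanconi and recombination genes, BRCA1 fell by 0.34 and UBE2T rose by 0.39; BRCA1 was lost in each fit without 1 culture other than untreated culture 1 (adjusted p up to 0.263), and UBE2T without untreated culture 1, untreated culture 3, cisplatin culture 1 or cisplatin culture 2 (up to 0.507). Of 9 translesion and 5 mismatch repair genes, 0 passed in limma, also with the A2780 arrays alone, while 3 and 1 had an unadjusted p under 0.05. The largest changes were -0.26 for MAD2L2 and -0.23 for PMS1. The fork protection gene TIMELESS fell by 0.42, the 1 call among 19 checkpoint genes, and was lost without cisplatin culture 3 (adjusted p = 0.0685).

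Among 21 genes tied to platinum transport and binding, 2 fell (9.52%, beside 1.82% of all genes called lower). Nothing particular to this list is read from so few calls. MT1F, a metallothionein, measured 6.90, 7.28 and 7.41 untreated and 6.41, 6.26 and 6.31 treated, and fell by 0.87. LRRC8D, a subunit of the volume-regulated anion channel that carries cisplatin, fell by 0.27, a call lost without cisplatin culture 1 or untreated culture 2. The copper transporter gene SLC31A1 had a change of -0.36 with an adjusted p of 0.078, and the exporter gene ATP7B of 0.22.

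Of 24 NF-kB targets, which act in inflammation, 0 passed in limma, with a median of -0.04, while 1 had an unadjusted p under 0.05 and 1, IRF1, passed with the A2780 arrays alone. The largest changes were -0.38 for IRF1 and 0.38 for CXCL1. Of 28 interferon-stimulated genes, 2 rose (7.14%, beside 1.72% of all genes called higher), IFIT1 by 0.92 and HERC5 by 0.88. Nothing particular to either list is read from these counts, and the IFIT1 call was lost with the lines of batch 1 alone (adjusted p = 0.056). IFIT1, which binds foreign RNA, measured 9.66, 9.63 and 9.71 untreated and 10.63, 10.66 and 10.45 treated. FOS rose by 0.50 and was lost without cisplatin culture 2 (adjusted p = 0.0886). Ribosomal protein (19), oxidative phosphorylation (16) and housekeeping (11) genes had 0 calls in limma, also with the A2780 arrays alone, and 0, 4 and 3 genes with an unadjusted p under 0.05. Their medians were 0.08, -0.05 and 0.08. Genes over 300 kb long had 6 rises (0.823%) and 10 falls (1.37%) among 729, beside 1.72% and 1.82% of all genes. Their median of -0.023 lay beside -0.022 for genes under 10 kb.

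The response of A2780 was next set against the mean response of the other 17 lines, by testing the difference itself. In 485 genes (2.63%) the responses differed, with A2780 above in 195 (1.06%) and below in 290 (1.57%), and 331 of the 651 genes called in A2780 were among them. Leaving out A2780 cultures 1 at a time gave 281 to 346 genes. Most called changes had the same sign elsewhere: of the 316 genes that rose in A2780, the mean of the other lines was above 0 in 260, and of the 335 that fell it was below 0 in 238. Over all genes the median of that mean was -0.006.

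**Figure D3:**
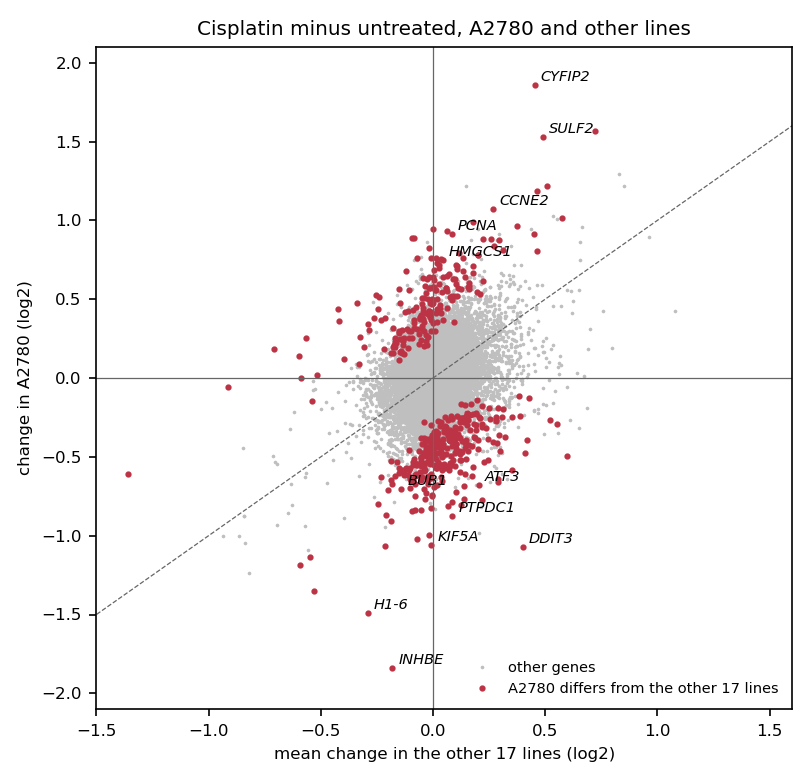
Each point is a gene, with its mean change in the other 17 lines on the horizontal axis and its change in A2780 on the vertical axis (both log2, cisplatin minus untreated); the dashed line marks equal change. Red points differ between A2780 and the other lines by limma; CYFIP2 (1.86 against 0.45) lies above the line, and INHBE (-1.84 against -0.18) and DDIT3 (-1.07 against 0.40) lie below it.

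All 26 p53 targets that rose in A2780 also rose in the mean response of the other 17 lines (limma adjusted p under the threshold), beside 16.4% of all genes. By the test of the difference, 11 of 52 targets were higher in A2780, beside 1.06% of all genes. The list median was 0.57 in A2780 and 0.34 for the mean of the others. HeyA8, also of batch 1, had the highest list median of the 18 lines (0.66). CYFIP2 was 1.41 above the others (SE 0.26, adjusted p = 0.000251), and 15 of the other 17 lines had a change above 0. A2780 ranked 2 of 18 for this gene, with 1.86 beside 1.89 in OVCAR-10. POLH was 0.46 above (adjusted p = 0.000392) and CMBL 0.66 above. CDKN1A and MDM2 were not shown to differ, with differences of 0.37 (adjusted p = 0.237) and 0.13 (adjusted p = 0.786); A2780 ranked 7 and 8 among the 18 lines. The count of 11 fell to 7 without untreated culture 1, untreated culture 2 or cisplatin culture 3, to 6 without untreated culture 3, to 5 without cisplatin culture 1 and to 4 without cisplatin culture 2.

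Mitotic genes were lower in A2780 against the mean of the other lines in 22 of 29 cases, beside 1.57% of all genes. The list median was -0.55 against -0.03. BUB1 was lower by -0.56 (SE 0.07, adjusted p = 1.21e-08), KIF23 by -0.66 and AURKB by -0.73. Other lines of batch 1 had like medians, HeyA8 with -0.51, OVCA429 with -0.42 and HeyC2 with -0.38, and with the lines of batch 1 alone 9 of the 29 genes differed. The S-phase genes PCNA and CCNE2 were 0.83 and 0.80 above the other lines (adjusted p = 5.16e-09 and 1.54e-05). PCNA rose most in A2780 of all 18 lines, whereas CCNE2 ranged from -1.46 in HeyA8 to 2.64 in FU-OV-1.

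The stress response genes that fell in A2780 were all 6 below the other lines, beside 1.57% of all genes. Of the 20 genes on that list, 3 were above the other lines, beside 1.06% of all genes. The list median of -0.24 in A2780 was not the lowest of the 18 lines, as FU-OV-1 had -0.32. CHAC1 ranked 15 of 18 from the highest change. Of the 651 genes called in A2780, 331 differed from the other lines in either direction. DDIT3 was lower by -1.47 (SE 0.18, adjusted p = 1.21e-08), as its mean change elsewhere was 0.40, and A2780 was the lowest of 18 lines. INHBE was lower by -1.66 (SE 0.17, adjusted p = 1.79e-11), also the lowest of 18, with OV90 next at -1.38. PPP1R15A and ATF3 differed by -0.95 and -0.88. HMGCS1 and MSMO1 were 0.71 and 0.68 above, and A2780 had the highest change of 18 lines in both, although the median of the cholesterol list was higher in OVCA429 (0.46) than in A2780 (0.37). Histone genes showed the reverse order: their median was -0.29 in A2780 and -0.54 for the mean of the others, with 6 of 41 genes above and 3 below. The shares of all genes were 1.06% above and 1.57% below.

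Some genes outside the lists stood apart. PTPDC1, a phosphatase gene, fell by 0.87 in A2780 and changed by 0.09 in the mean of the others, a difference of -0.96 (adjusted p = 5.16e-09). GLDC, the glycine decarboxylase, went from a mean of 9.21 ± 0.14 to 10.09 ± 0.10 (SD, n = 3 each) and was 0.98 above the others. SCN7A was 0.94 above with a mean change of 0.0018 elsewhere. THY1, a surface glycoprotein, rose by 0.56 and was 0.55 above. Each of the genes named here as differing from the other 17 lines kept its call in all 6 fits without 1 A2780 culture.

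**Figure D4:**
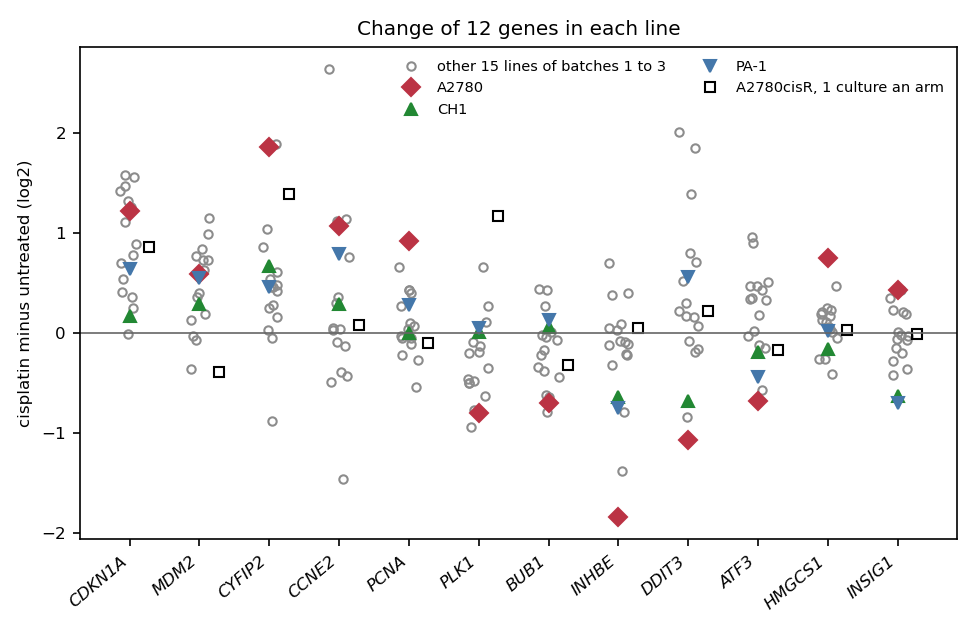
Change (cisplatin minus untreated, log2, vertical axis) of 12 genes in A2780 (diamonds), CH1, PA-1, the other 15 replicated lines (circles) and A2780cisR (open squares, 1 culture an arm, shifted right). A2780 lies at the top for PCNA (0.92) and HMGCS1 (0.75) and at the bottom for INHBE (-1.84) and DDIT3 (-1.07), and within the range of the other lines for CDKN1A and MDM2.

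Against CH1, another line used as cisplatin-sensitive, 211 genes (1.15%) responded differently, 57 above (0.309%) and 154 below (0.836%) in A2780. CH1 lay in batch 2 and A2780 in batch 1, so differences between lines and between batches cannot be told apart here. CDKN1A rose by 1.22 in A2780 and by 0.17 in CH1, a difference that passed (adjusted p = 0.000839). BUB1 (0.06 in CH1) and PLK1 (0.01) also differed, with adjusted p-values of 2.56e-08 and 6.27e-05. INSIG1 changed in opposite directions, 0.43 in A2780 and -0.63 in CH1 (adjusted p = 1.19e-08). The difference in DDIT3 did not pass, with -1.07 against -0.68 (adjusted p = 0.76), nor in CHAC1, with -1.06 against -1.13 (0.989).

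Against PA-1 of the same batch, 2125 genes (11.5%) differed, 953 above (5.17%) and 1172 below (6.36%). TP53I3 rose by 0.81 in A2780 and changed by 0.13 in PA-1 (adjusted p = 2.83e-05), and XPC by 0.71 and -0.15 (adjusted p = 0.00125). FAS lay the other way, with 0.41 in A2780 and 1.24 in PA-1 (adjusted p = 0.00354). DDIT3 was -1.07 and 0.56 (adjusted p = 4.19e-06).

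A2780cisR lay in batch 4, whose arrays were on another scale, so only its own difference between 1 treated and 1 untreated culture is given, with no test. Over 18417 genes its changes correlated at 0.120 with those of A2780, within the range of the other 17 lines (-0.006 to 0.275; 8 above and 9 below), a description in which single cultures add noise. Of the genes that rose in A2780, 227 of 316 had a change above 0 in A2780cisR, and of those that fell, 191 of 335 had a change below 0, beside 9543 of 18417 genes above 0 in all. The p53 list had a median of 0.36 in A2780cisR, with 40 of 52 genes above 0. CYFIP2 was 1.39 higher in its treated culture, CDKN1A 0.86 higher and MDM2 lower, with a change of -0.39. The mitotic list had a median of -0.22 in A2780cisR, with 11 of 29 genes above 0: BUB1 was lower there, with a change of -0.32, and PLK1 was 1.17 higher. The differences in A2780cisR were 0.05 for INHBE, 0.22 for DDIT3, 0.08 for CCNE2 and -0.10 for PCNA. HMGCS1 was 0.75 higher in A2780 and 0.03 higher in A2780cisR.

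Markers of the labelled cell type were checked on the untreated cultures. Of 10 epithelial markers, 8 lay below the median of the 18 lines, KRT18 (8.74) and CLDN3 (6.35) were the lowest of all, and CDH1 (4.76) and EPCAM (4.93) were in the low range of the array. Of 6 ovarian carcinoma lineage genes, 4 lay below that median, among them PAX8 (5.72, rank 16 of 18), while FOLR1 (6.18) ranked 6 and MUC16 (5.10) ranked 9. COL1A2 (12.89) was the highest of 18 lines and FN1 (4.57) the lowest. By the mean over the 6 arrays, all 9 leukocyte markers and 5 of 6 endothelial markers (all but CDH5) were at or below 5.25, the level under which the lowest 30% of genes lay. The mean of the leukocyte markers was 4.12 to 4.32 in untreated and 4.18 to 4.26 in cisplatin cultures, and that of the endothelial markers 4.29 to 4.63 and 4.44 to 4.64. Cisplatin changed 0 of 18 epithelial genes in limma, also with the A2780 arrays alone, and 3 had an unadjusted p under 0.05. KRT19 passed in limma with the lines of batch 1 alone (adjusted p = 0.00417). Of 21 mesenchymal genes, 2 rose (9.52%, beside 1.72% of all genes called higher), ACTA2 by 0.59 and THY1 by 0.56. Nothing particular to this list is read from so few calls. The ACTA2 call was lost in each of the 6 fits without 1 culture.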

How the data were processed

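Expression was measured on Affymetrix arrays. A single deposited table holds the log2 level of 33297 probe sets. The submitters' processing notes name RMA, with no version in the sources used here. This method corrects background, equalises the distributions of the arrays processed together and summarises the probes of a set, so folds of bright and dim genes can be compressed. Upper quartiles of arrays ran from 7.82 to 8.08 in batches 1 to 3 and from 5.80 to 6.59 in batches 4 and 5, so changes were taken within a batch. The number of arrays, not depth, limits the precision. Of the probe sets, 19460 had 1 symbol, and the brightest set of each gene was kept (18417 genes). RefSeq tables (GRCh38.p14) updated symbols and supplied 14239 promoters.

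In R 4.3.3 with limma 3.58.1, a group-means model over 107 cultures of the 18 replicated lines of batches 1 to 3 (repeat arrays averaged, 71 residual degrees of freedom) gave the change in A2780 and its difference from the other 17 lines, CH1 and PA-1. The tests were two-sided, with Benjamini-Hochberg adjustment and a threshold of 0.05. The model was tested on simulated data in 5 draws with 200 changed genes, with a median of 9 false calls. No block was used, since the labels do not say what a culture number marks. Same-numbered untreated and cisplatin cultures correlated at 0.022 to 0.066 in their deviations. These values were under 0.1 but above those of unlike numbers (-0.068 to 0.010).

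Named genes were the 15 largest rises and the 15 largest falls among called genes without overlap between arms, up to 5 called members of a list or 2 of a list with none, the 8 largest called differences each way from the other 17 lines, and a fixed set. Other members named beside a list's count were chosen after their values were seen. The members and lists were chosen with earlier results of these data known. Alternatives changed the samples, cultures, scaling, dim-gene filter, probe sets, moderation and minimum change.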

Additional observations from a re-analysis of the deposited data

Results flagged for a closer look

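The response of A2780 differed, by a limma test of the difference itself, from the mean response of the other 17 lines in 485 genes, from CH1 in 211 and from PA-1 in 2125. Among the 124 genes of the naming rule, 55 differed from the other 17 lines, and 38 of these kept the call in all 6 fits without 1 A2780 culture. The 17 that lost it at least once were BRCA1, DNAI3, H1-4, H2BC12, IRF1, MT1F, PIDD1, SESN1, SFN, SPATA18, STX8, SULF2, TIMELESS, TLR4, TP53I3, TYMS and ZMAT3. With the lines of batch 1 alone, 393 genes differed, 264 of them among the 485 in the same direction, and 12 of the 55 lost the call: SPATA18, INPP5D, ZMAT3, H1-4, H2AC16, PIDD1, TYMS, TIMELESS, BRCA1, IRF1, MT1F and STX8. Each value below is the A2780 change minus the mean change of the other lines, on the log2 scale. Among p53 targets, the difference was 1.41 for CYFIP2, 0.71 for SPATA18, 0.66 for CMBL, 0.59 for ZMAT3, 0.49 for SFN, 0.46 for POLH, 0.44 for SESN1, 0.39 for PIDD1 and 0.34 for TP53I3. Among S-phase and repair genes, the difference was 0.83 for PCNA, 0.80 for CCNE2, 0.52 for MCM6, 0.42 for FEN1, 0.32 for TYMS, -0.34 for BRCA1 and -0.37 for TIMELESS. Among mitotic genes, the difference was -0.74 for NDC80, -0.73 for AURKB, -0.66 for KIF23, -0.56 for BUB1 and -0.56 for PLK1. Among histone genes, the difference was -1.20 for H1-6, -0.82 for H4C3, -0.60 for H1-4, -0.59 for H2AC16, 0.97 for H2BC12 and 0.90 for H2BC10. Among stress response, immediate early and inflammatory genes, the difference was -1.47 for DDIT3, -0.95 for PPP1R15A, -0.88 for ATF3, -0.85 for CHAC1, -0.70 for TRIB3, -0.54 for HERPUD1 and -0.70 for IRF1. Among sterol genes, the difference was 0.71 for HMGCS1, 0.68 for MSMO1 and 0.52 for INSIG1. Other genes above the other lines had differences of 0.84 (DNAI3), 1.04 (SULF2), 0.72 (INPP5D), 0.81 (PARD6G), 0.94 (SCN7A), 0.55 (THY1), 0.98 (GLDC), 0.87 (IFITM10), 0.86 (FDXACB1) and 0.53 (STX8), and genes below had -1.66 (INHBE), -1.05 (KIF5A), -0.95 (FGF21), -0.98 (ULBP1), -0.66 (MT1F), -1.09 (TLR4), -0.99 (MYPN) and -0.96 (PTPDC1). The STX8 difference comes from a change of 0.02 in A2780 beside a mean of -0.52 elsewhere, and H2BC10, TLR4, SCN7A, H1-6 and FGF21 were in the lowest 30% of levels. No explanation of these differences was tested.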

How the results depend on the processing

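The count of 651 genes called in A2780 was 372 with the 6 arrays alone (309 of them among the 651 in the same direction), 70 against a minimum change of 1.2-fold, and 392 to 498 without 1 A2780 culture. The count against the other 17 lines was 281 to 346 without 1 culture. With a replicate block in the A2780 arrays alone, where 2 residual degrees of freedom remain, 0 genes passed in limma and 3094 had an unadjusted p under 0.05. The shared numbers pair no cultures by the labels, although each culture correlated best with its own number, and the lists then also had 0 calls. Scaling, the dim-gene filter, the choice of probe set and moderation gave 638 to 903 genes, and the lines of batch 1 alone 635. No result changed direction in a called value. Of 83 named genes called in A2780, 63 kept the call in all 6 fits without 1 culture. With the A2780 arrays alone 16 lost it: ZNF737, H2AC14, SPRR2D, SFN, CDC45, FEN1, TYMS, TIMELESS, CETN2, UBE2T, BRCA1, FOS, LRRC8D, INSIG1, NOP58 and DKC1. Array values carry no read depth, and 15 of 124 named genes were at or below 5.25.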
